A study of Rattus norvegicus with 6 samples.

Results

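Cultured rat neurons were compared with cultured rat astrocytes by RNA sequencing, with 2 libraries of each, 4 of the 6 libraries of the series. The 4 libraries were chosen by their labelled cell type, and each difference is neuron minus astrocyte. The neurons were a commercial product that had not been passaged and had been grown for 7 days. The astrocytes were a separate product of the same supplier, passaged 1 time after 8 days in culture and grown for 6 more days. Cell type, product, passage and days in culture therefore cannot be told apart. The labels used here name no treatment, strain, age or brain region for either product, and do not say whether the 2 libraries of a product came from separate cultures. The other 2 libraries, of oligodendrocyte precursor cells (OPCs), passaged 1 time after 8 days and grown for 6 more, took part in the shared estimate of spread.

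Neurons are the electrically excitable cells of the brain. They send signals along axons and pass them on at synapses, and their messenger RNA is known for vesicle release proteins, receptor and channel subunits and neurofilaments. Astrocytes are glial cells that take up glutamate and potassium at synapses and supply neurons with nutrients, and in culture they keep dividing. Bulk libraries of cultured cells hold the RNA of every cell in the dish, so fewer cells of a type and less RNA per cell cannot be told apart.

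Genes were listed only by Ensembl rat identifiers, and 0 of the 26405 identifiers could be paired with a symbol. The 3 identifiers supplied as markers came without names and without a statement of which cell each one marks. The labelled cell types could therefore not be checked against them. The neuron and astrocyte libraries did not overlap for any of the 3, where 68.8% of all genes tested had separate groups. ENSRNOG00000006037 and ENSRNOG00000011841 were higher in neurons, and ENSRNOG00000002919 was higher in astrocytes. Defining markers of microglia, vessels or other brain cells could not be looked up, so the purity of the cultures was not examined. For the same reason no group of genes is described by function.

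ENSRNOG00000006037 went from almost no reads in astrocytes to a high level in neurons. It stood at 433 CPM (counts divided by the scaled library size and brought to a common total) in neuron replicate 1 and at 176 CPM in neuron replicate 2. Astrocyte replicate 1 had 0.221 CPM (18 counts) and astrocyte replicate 2 had 0 counts, where 3 counts would be 0.0715 CPM. The groups were far apart, although the neuron libraries themselves differed 2.47-fold. The log2 fold change was 11.17 ± 1.23 (SE; edgeR adjusted p = 0.0011). It was 10.43 with astrocyte replicate 2 left out and 10.34 with neuron replicate 1 left out. With astrocyte replicate 1 left out 0 astrocyte counts remained, and the fitted 16.98 depends on the prior count. By mean CPM the gene ranked 347 of all genes in neurons and 17822 in astrocytes.

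ENSRNOG00000011841 was present in both cell types. It stood at 597 and 526 CPM in neuron replicates 1 and 2, against 19.7 and 14.3 CPM in astrocyte replicates 1 and 2. Here the neuron replicates were close to each other, at a ratio of 1.14, and the groups did not overlap. The log2 fold change was 5.05 ± 0.53 (SE; edgeR adjusted p = 0.000928), a difference of 33.1-fold. It was the 134th gene by mean CPM in neurons, above ENSRNOG00000006037, and the 8461st in astrocytes. Such ranks are not corrected for gene length, so they do not compare the genes' transcript numbers.

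ENSRNOG00000002919 was among the most abundant genes of the astrocytes, at rank 39. It stood at 2670 and 2488 CPM in astrocyte replicates 1 and 2. In neurons it had 70.6 CPM in replicate 1 (6459 counts) and 2.32 CPM in replicate 2 (134 counts), which was 2.74% and 0.0899% of the astrocyte mean. Both neuron libraries were thus far below the astrocytes, but they differed 30.5-fold from each other. The log2 fold change was -6.14 ± 1.48 (SE), with a 95% interval from -9.63 to -2.65 and an edgeR adjusted p of 0.0197. Leaving out neuron replicate 1 gave -10.12, outside that interval, and leaving out neuron replicate 2 gave -5.19. The call was lost without astrocyte replicate 1 (edgeR adjusted p = 0.0678), without astrocyte replicate 2 (0.0611) and with no low-count filter (0.113), and over 16 alternatives the adjusted p ran from 1.94e-07 to 0.113.

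ENSRNOG00000012094 had the deepest fall of the 1144 genes that passed the test, had separate groups and reached a mean of 50 CPM in astrocytes. It was about as abundant in astrocytes as ENSRNOG00000002919, at 2690 and 2118 CPM in replicates 1 and 2. Neuron replicate 1 had 1.53 CPM (140 counts) and neuron replicate 2 had 0.173 CPM (10 counts), or 0.0637% and 0.0072% of the astrocyte mean. Its level in neuron replicate 1 was again the higher one, 8.85-fold above replicate 2. The log2 fold change was -11.43 ± 1.45 (SE; edgeR adjusted p = 0.00177). It was -13.74 with neuron replicate 1 left out and -10.61 with neuron replicate 2 left out. The plot of the 4 genes by library shows these values.

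**Figure D1:**
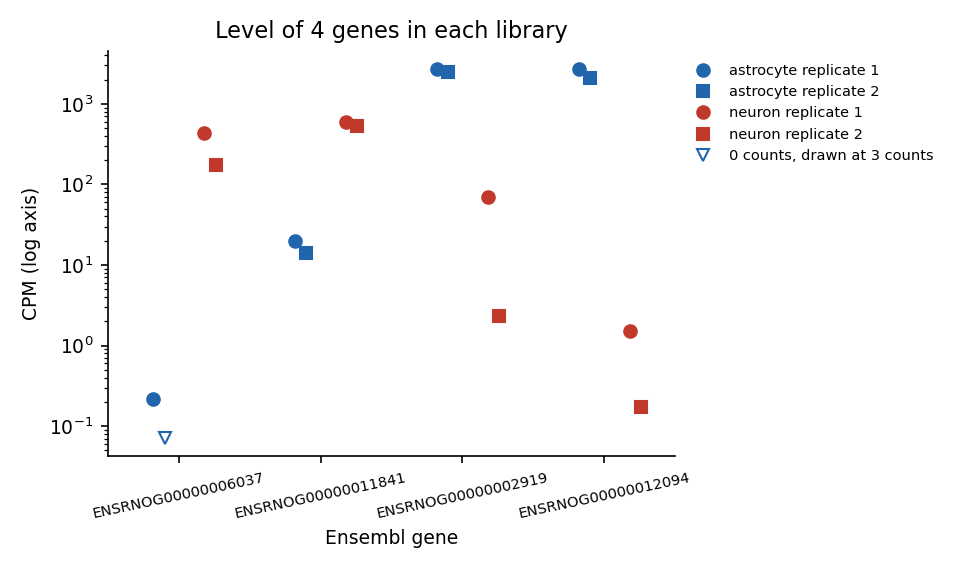
CPM (log axis) of 4 Ensembl genes in each of the 4 libraries, with astrocytes in blue, neurons in red, circles for replicate 1 and squares for replicate 2; the open triangle is a library with 0 counts, drawn at the CPM of 3 counts. The groups were separate for each gene, which the rule that chose ENSRNOG00000012094 required. The widest gap between replicates was that of ENSRNOG00000002919 in neurons, 70.6 against 2.32 CPM.

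Over the whole table, 2639 genes were higher in neurons and 2893 were lower, 14.5% and 15.9% of the 18206 genes tested (30.4% together, edgeR quasi-likelihood test, adjusted p under 0.05). The median difference among the called genes was 10.2-fold for the higher and 8.50-fold for the lower ones. A gene had to differ widely to be called. Of the 9705 genes with a fitted difference under 2-fold, 31 passed, and the smallest difference called was 1.85-fold. The share called was 37.3% of 3741 genes at 2- to 4-fold, 69.7% of 1649 genes at 4- to 8-fold, 91.7% of 1739 genes at 8- to 32-fold and 99.4% of 1372 genes above 32-fold. Leaving out astrocyte replicate 1 brought the calls down to 3306 (1598 higher, 1708 lower), and leaving out astrocyte replicate 2 to 3486 (1565 higher, 1921 lower). The higher genes were 47.7% of the calls here and 66.2% with libraries scaled by total counts alone.

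**Figure D2:**
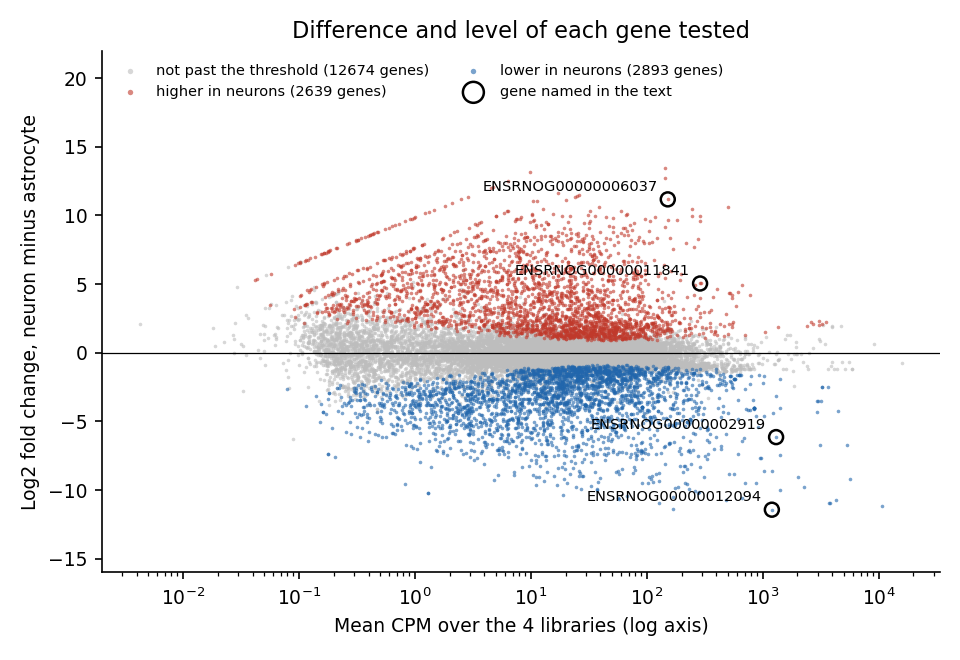
Log2 fold change (neuron minus astrocyte) against the mean CPM of the 4 libraries (log axis), 1 point per gene tested, with 2639 genes higher in neurons in red, 2893 lower in blue and the genes that did not pass in grey. Black circles mark the 4 genes described by library; few points under 2-fold are coloured.

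The genes that did not pass were seldom shown to be alike. The 95% interval of the difference had a median half-width of 1.09 on the log2 scale. It lay wholly within 2-fold in either direction for 1350 genes, 7.42% of those tested, and within 4-fold for 8595 genes (47.2%). Of these 8595 genes, 273 were called, so a gene can be called and still be held to a difference under 4-fold. The intervals were widest for genes with a mean under 1 CPM (median half-width 1.99) and narrowest at 10 to 100 CPM (0.893). The half-width was 0.984 at 100 to 1000 CPM and 1.28 at 1000 CPM or more, so it did not narrow further at higher levels.

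The direction of the calls differed between the most and the least abundant genes. Among genes with a mean of 1000 CPM or more over the 4 libraries, 30 were lower and 9 higher in neurons, of 89 tested. At 100 to 1000 CPM, 399 were lower and 197 higher, and at 10 to 100 CPM the numbers were 1472 and 1325. At 1 to 10 CPM 796 genes were lower and 775 higher, and below 1 CPM 196 were lower and 333 higher. More than 8-fold differences among genes of 1000 CPM or more numbered 24 lower and 0 higher. The classes were set by the mean of both cell types, which the higher group dominates where a difference is wide.

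Scaling, the low-count filter and single libraries moved part of this pattern. Higher genes made up 33.1% of the calls at 100 to 1000 CPM, and 53.8% when libraries were scaled by total counts alone, so the direction in that class flipped with the scaling. Over all genes tested, that scaling raised the median log2 difference by 0.46. Upper-quartile factors raised it by 0.11, with a share of 36.8% in that class. From 1 to 100 CPM the larger side changed with the scaling, and also when some single libraries were left out. At 10 to 100 CPM the higher genes were 47.4% of the calls, and 51.2% with RLE factors, 52.8% with upper-quartile factors, 69.4% with total counts alone and 50.9% with DESeq2. At 1 to 10 CPM they were 49.3%, and 51.8%, 52.8%, 61.8% and 51.3% with the same alternatives in turn. A filter that kept genes with a mean of at least 5 CPM over all 6 libraries moved that class more, to 67.7% (346 higher, 165 lower). Under 1 CPM that filter left 8 higher and 0 lower calls, and at 10 to 100 CPM the share was 48.1%. At 1000 CPM or more the higher genes were the smaller part under each of 16 alternatives, at 0% to 33.3% of the calls, and 0 of them passed when any 1 astrocyte or OPC library was left out. Below 1 CPM the higher genes were 62.9% of the calls, and 46.2% without astrocyte replicate 1, where 80 were higher and 93 lower.

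**Figure D3:**
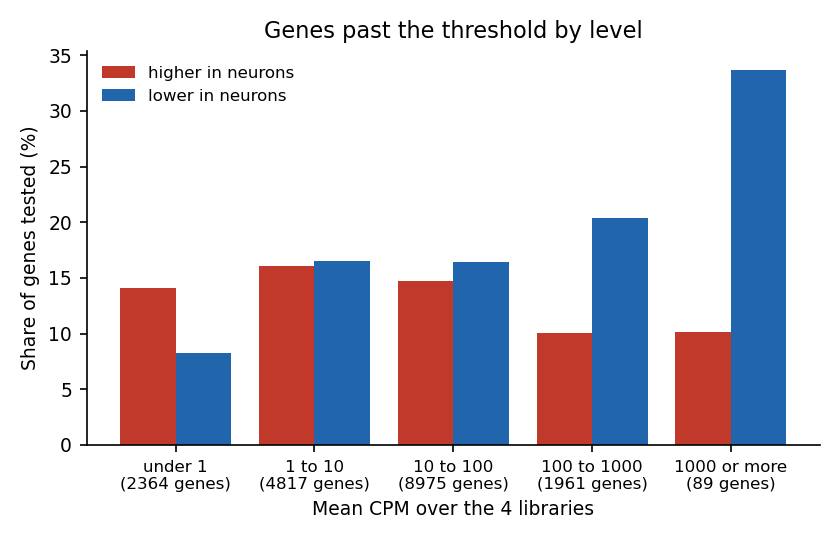
Share of the genes tested (%) that were higher (red) or lower (blue) in neurons, by the mean CPM of the 4 libraries, with the number of genes tested under each class. Lower genes outnumber higher ones from 100 CPM upward (399 against 197, and 30 against 9), and the reverse holds under 1 CPM (196 against 333).

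The lower genes held a large part of the astrocyte RNA. The 2893 genes took 38.8% and 32.9% of the counts in astrocyte replicates 1 and 2, and 6.72% and 4.62% in neuron replicates 1 and 2. The 2639 higher genes took 21.0% and 22.9% of the counts in the neuron libraries, and 2.83% and 3.12% in the astrocyte libraries. Most counts belonged to genes that did not pass, at 61.2 ± 3.97% in astrocytes and 72.3 ± 0.13% in neurons (SD, n = 2 each). Since the classes were chosen on these libraries, the shares describe how much RNA they cover and are no further evidence of direction.

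**Figure D4:**
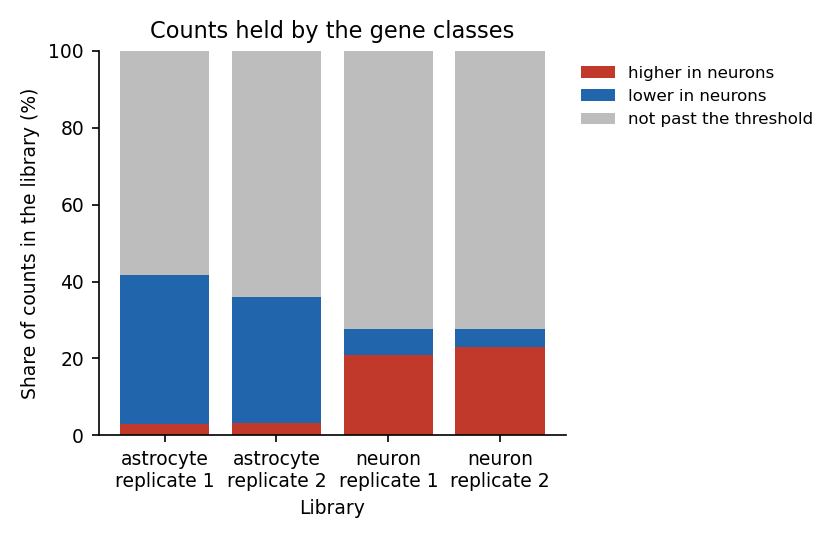
Share of the counts in each library (%) held by the genes higher in neurons (red), lower in neurons (blue) and not past the threshold (grey). The blue part is 38.8% and 32.9% in astrocytes and 6.72% and 4.62% in neurons, and the red part is 2.83% and 3.12% against 21.0% and 22.9%.

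Astrocyte libraries spread their counts over fewer genes than neuron libraries. The most abundant 483 and 571 genes gave 50% of the counts in astrocyte replicates 1 and 2, against 986 and 764 genes in neuron replicates 1 and 2. The 10 most abundant genes did not follow that order, with 10.6% and 8.07% of counts in astrocytes and 7.82% and 9.23% in neurons. With 2 libraries against 2, an exact permutation test cannot go below p = 0.333, so none was run.

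The lists of the 100 most abundant genes shared 88 genes between the astrocyte libraries and 74 between the neuron libraries. An astrocyte and a neuron library shared 43 to 52. Of the 88 genes on both astrocyte lists, 45 were lower in neurons and 0 were higher, where 15.9% and 14.5% of all genes tested were called in those directions. Of the 74 genes on both neuron lists, 13 were higher in neurons, 3 were lower and 58 were not called. DESeq2 called 21 of the 74 higher and 13 lower, and edgeR with a term for replicate number called 20 and 13. On the astrocyte lists each of these alternatives called 3 genes higher, with 56 and 55 lower. When astrocyte replicate 1 or 2 was left out, 3 genes on the neuron lists were called higher, while 41 and 39 genes on the astrocyte lists were called lower. Using only the 4 libraries compared, or leaving out OPC replicate 1 or 2, also gave 3 higher genes on the neuron lists, and leaving out neuron replicate 1 gave 20. Without neuron replicate 2, 9 genes on the neuron lists were higher and 15 were lower. The lists were taken from the libraries compared, and a gene on 1 group's list is high there by construction.

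A level of at least 1 CPM in both libraries was reached by 14254 genes in neurons and 14610 in astrocytes, and 13096 genes reached it in all 4 libraries. Near-absence in the other cell type was rare. Of the 14254 neuron genes, 222 (1.56%) were under 0.1 CPM in both astrocyte libraries, and of the 14610 astrocyte genes, 99 (0.678%) were under 0.1 CPM in both neuron libraries. At 10 CPM or more in both libraries these numbers were 47 of 9102 and 21 of 9755. With at least 100 CPM, 1 neuron gene of 1378 and 0 astrocyte genes of 1876 were that low in the other cell type. ENSRNOG00000012094, the named gene with the deepest fall, was above that limit in both neuron libraries. Of the genes at 1 CPM or more, 10 neuron genes had 0 counts in both astrocyte libraries and 3 astrocyte genes had 0 counts in both neuron libraries. A level of 0.1 CPM lay above the CPM of 3 counts in each of the 4 libraries, 0.0328 to 0.0715.

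The 2 pairs of libraries with the same number share no library, so each shows the comparison once. The labels do not say whether a product's libraries came from separate cultures, so the pairs may not be independent. In the first pair 1388 genes were more than 8-fold higher in the neuron library, and 1273 of these (91.7%) were more than 2-fold higher in the second pair. In the same pair 1240 genes were more than 8-fold lower, and 1220 of these (98.4%) were more than 2-fold lower in the second. A difference of more than 2-fold in the opposite direction was found in the second pair for 19 and 2 of them. Starting from the second pair, 1148 genes were higher and 1786 lower by more than 8-fold, and 1116 (97.2%) and 1670 (93.5%) were past 2-fold the same way in the first. Both pairs thus placed most of the widely different genes on the same side. Of the called genes, 2639 of 2639 higher and 2893 of 2893 lower had groups that did not overlap, where 68.8% of all genes tested had separate groups. The calls were made on these same libraries, so this separation is no further evidence of direction. Each neuron library was more than 8-fold above or below each astrocyte library for 849 genes on the higher side and 897 on the lower side.

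The neuron replicates differed in their level of genes that are high in astrocytes, though not of these alone. To describe this without choosing genes on their level in neurons, genes more than 8-fold higher in astrocytes than in OPCs were taken. They passed an edgeR adjusted p under 0.05 and had a mean of at least 10 CPM in astrocytes, 1016 in all. Of these, 864 (85.0%) were called lower in neurons than in astrocytes, 147 were not called and 5 were called higher. Of all genes tested, 15.9% were called lower and 14.5% higher. Both choices share the astrocyte libraries, so lower calls are favoured by construction. The neuron libraries also entered the filter, scaling and estimate of spread of the comparison with OPCs. The level of the 1016 genes in neuron replicate 1 had a median of 5.73% of the astrocyte mean (quartiles 1.73% and 15.1%), and in neuron replicate 2 a median of 2.36% (0.665% and 8.09%). Neuron replicate 1 was the higher one for 767 of the 1016 genes (75.5%), at a median ratio of 1.95. Over all 10409 genes tested with at least 10 CPM in astrocytes it was the higher one for 47.4%, at a median ratio of 0.967. Among the 1454 genes called more than 8-fold higher in neurons, a class chosen on these libraries, it was the higher one for 63.5%. Their median ratio was 1.35. Of all 18206 genes tested, 376 were more than 8-fold higher in neuron replicate 1 and 58 in neuron replicate 2. The summed share of counts of the 1016 genes was similar in the neuron replicates, 2.24% and 2.05%, against 24.3% and 18.1% in the astrocyte libraries. Calls in each direction, higher and lower, were more numerous without neuron replicate 1 than without neuron replicate 2. The part of RNA from astrocytes in the neuron libraries in these results was not tested.

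**Figure D5:**
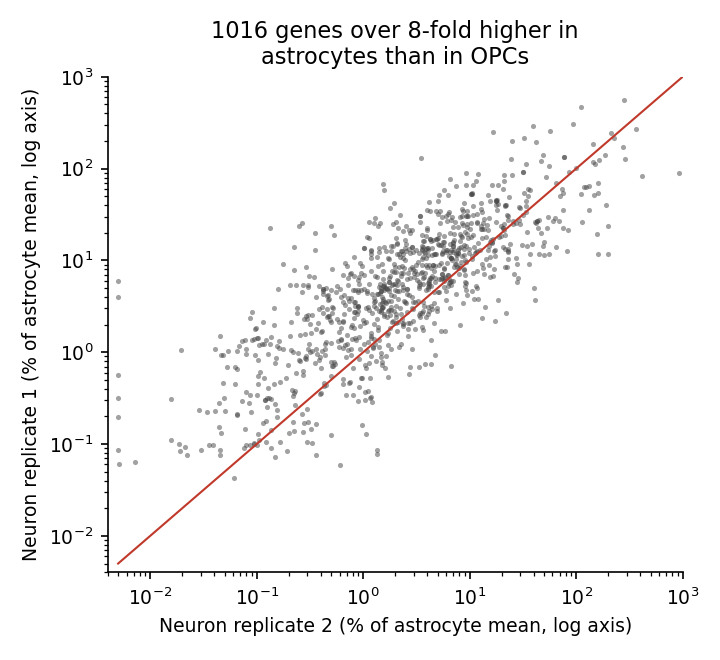
Level in neuron replicate 1 against neuron replicate 2, each as % of the astrocyte mean (log axes), for 1016 genes more than 8-fold higher in astrocytes than in OPCs, with the line of equal levels in red; 6 genes below 0.005% in a library are drawn at that value. Most points, 767, lie above the line.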

How the data were processed

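Per the labels' protocols, column-purified total RNA was sequenced on an Illumina HiSeq instrument. The authors deposited raw counts per gene. The aligner, counter, build, annotation and strand setting were not given in the sources used here, so overlapping or near-identical genes may share reads. Total counts were 102861667 and 50267809 (astrocytes), 75601751 and 55520161 (neurons) and 22265917 and 45077708 (OPCs). No 2 libraries were identical, and 0 columns were left out. P-values measure the spread between these libraries, which may be technical. Floors of 3 counts cover counting error only.

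The test was edgeR's quasi-likelihood F test (version 4.0.16, R 4.3.3) after filterByExpr (minimum count 10, minimum total 15). All 6 libraries entered with TMM factors, a coefficient for each cell type and robust estimation, with 3 residual degrees of freedom. P-values were Benjamini-Hochberg adjusted over 18206 genes at 0.05. Standard errors and 95% intervals were worked out from each F statistic. Ratios of single libraries added 0.1 CPM. Other tools tried were DESeq2 1.42.0 and limma-voom (limma 3.58.1).

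In simulated counts, 67 genes were set to 8-fold, 67 to 4-fold and 66 to 2-fold, and 17915 genes were tested. Of 66 tested genes in each set, the test found 54 at 8-fold, 18 at 4-fold and 4 at 2-fold. It also called 3 unchanged genes. Far fewer genes were changed there than the 30.4% called in the real libraries. The adjustment of p-values depends on that share, so these counts do not give the recovery in the real comparison.

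Genes, classes and tests were chosen with earlier results of these data known. The named genes are the supplied markers and the deepest fall among called genes with separate groups and at least 50 CPM on average in astrocytes. At most 2 identifiers per direction are printed, and markers took both rising places. The name table at hand (assembly GRCr8) held 0 of the identifiers, so the planned gene lists and pairs were not used and no sequence is shown.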

Additional observations from a re-analysis of the deposited data

How the results depend on the processing

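Against a log2 fold change of 1 the edgeR test called 3637 genes, 1744 higher and 1893 lower in neurons, by its stricter construction. Leaving out 1 library in turn gave 3306 to 5996 genes, 1565 to 2701 higher and 1708 to 3295 lower, and the cause was not tested. There a group's single remaining library is taken to vary as the others do. All other alternatives (DESeq2, limma-voom, RLE, upper-quartile or total-count scaling, no filter, a mean of at least 5 CPM, only the 4 libraries compared, the replicate block) kept the count within 1.5 times, with 0 genes called in opposite directions. The replicate block called 6467 genes, 2768 higher and 3699 lower, and 5205 of the 5532 calls were kept. The correlation of replicate differences between neurons and astrocytes was 0.147 across genes. No label says what a number marks, so whether same-numbered samples share more than a number is not known. Of the 4 named genes, ENSRNOG00000002919 lost its call under 3 of 16 alternatives and the other 3 under 0, with 0 reversals. Of 17312 genes with at least 100 counts, 102 had counts identical to another gene's, 37 of them called.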
